A study of Caenorhabditis elegans with 8 samples.

Results

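Aspartyl proteases and cathepsins are the peptidases that break proteins down at acid pH, chiefly in lysosomes and in the gut lumen. They fall into catalytic families: aspartyl proteases of the pepsin and cathepsin D type, cysteine proteases of the cathepsin B, L and Z types, and serine carboxypeptidases related to cathepsin A, which trim residues from the end of a peptide chain. In C. elegans many of these genes are expressed in the intestine, where they serve digestion as well as lysosomal turnover, and some act in yolk processing, molting or the death of damaged neurons.

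The genes described here are the 35 with a probe whose only symbol begins with asp, cpr, cpl, cpz or ctsa and ends in a number, out of 26128 genes on the array that had a probe with 1 symbol. They comprise 17 aspartyl protease (asp) genes, 8 cathepsin B-like (cpr) genes, 1 cathepsin L (cpl) gene, 2 cathepsin Z (cpz) genes and 7 cathepsin A-like serine carboxypeptidase (ctsa) genes. Membership is set by the symbol and not by a measured value, although the families were picked with earlier results of these data known. Each of the 35 genes had 1 such probe. The samples were whole synchronized populations of wild-type N2 Bristol worms, kept at 20 °C on OP50 bacteria, at day 1 (3 arrays), day 6 (3 arrays) and day 12 (2 arrays) of adulthood. No genotype or treatment differed between the ages, and M9 buffer was applied to all. RNA of each population was hybridised to an Affymetrix C. elegans Gene 1.1 ST array, and the deposited values are log2 signal per probe. The labels call the replicates biological without saying whether they came from separate cultures, so p-values measure the spread between these arrays.

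The median log2 signal of an array was 2.3 to 2.4, and Pearson's r across probes was 0.983 to 0.989 within a day and 0.943 to 0.953 between day 12 and day 1. A mean below 3 is called dim here, and it applied to 63.2% of tested probes. Differences to or from a dim level are read as lower bounds. No batch is named in the labels, and any that coincided with a day of sampling and the age itself cannot be told apart. In RNA of whole animals, fewer cells of a type and less RNA per cell cannot be told apart.

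Of the 35 genes, 8 were dim on all 3 days: asp-7, asp-9, asp-11, asp-15, asp-16, asp-18, asp-19 and ctsa-3.2, whose arrays ranged from 1.30 to 2.71. None of these 8 was called in any comparison by limma, and of them asp-19 alone had an unadjusted p under 0.05 in some comparison. In limma, the linear model fitted to all tested probes, a call is a Benjamini-Hochberg adjusted p under 0.05. The other 27 genes had a mean of at least 3 on at least 1 day, and cpr-2 did so only at day 12. Differences below are later day minus earlier day on the log2 scale, with the standard error (SE) of the fit.

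By day 12 the main change in these genes was a loss of signal. In the comparison of day 12 with day 1, 18 of the 35 genes fell, 2 rose and 15 were not called, against 4.52% of the 26761 tested probes called lower and 9.58% called higher. All 18 were among the 26 protease genes with a mean of at least 3 over the 8 arrays, and of all probes that bright 10.4% were called lower. Both day 12 arrays lay below all day 1 arrays in 21 of the 35 genes, the 18 called ones among them, against 17.4% of tested probes. The median difference over the 35 genes was -0.99, against -0.01 over all genes. Of the 18 that fell, 16 fell by at least 1 on the log2 scale. The carboxypeptidase class had a median of -3.98, the cathepsin B-like class -0.98 and the aspartyl class, with its 7 dim genes, -0.60. These medians were also taken over genes with a mean of at least 3 over the 8 arrays. They were -4.04 for 6 carboxypeptidases, -1.19 for 7 cathepsin B-like genes and -1.90 for 10 aspartyl genes. The order of the last 2 classes turns under this cut. It leaves out the dim genes and also cpr-2, which had a mean of 2.95 and rose by 3.76. Since day 1 and day 6 gave most of the arrays, the cut favours genes bright on those days.

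The decline was uneven in time in 7 of the 18 genes that fell between day 12 and day 1, by a contrast given below. Between day 6 and day 1, 7 genes fell and 1 rose, against 1.66% of probes called lower and 2.18% called higher. Between day 12 and day 6, 13 genes fell and 1 rose, against 2.69% of probes called lower and 6.36% called higher. The intervals, of 5 and 6 days, were compared in a contrast of their own, without scaling to their length. This contrast, the change after day 6 minus the change before it, called 8 genes. In 7 of them (asp-4, asp-5, asp-13, asp-14, cpr-6, ctsa-1.2 and ctsa-3.1) the change after day 6 was the more negative, a direction called in 1.24% of probes. In cpr-2 it was the more positive, as in 2.22% of probes. The plot of fitted differences shows these changes class by class.

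**Figure D1:**
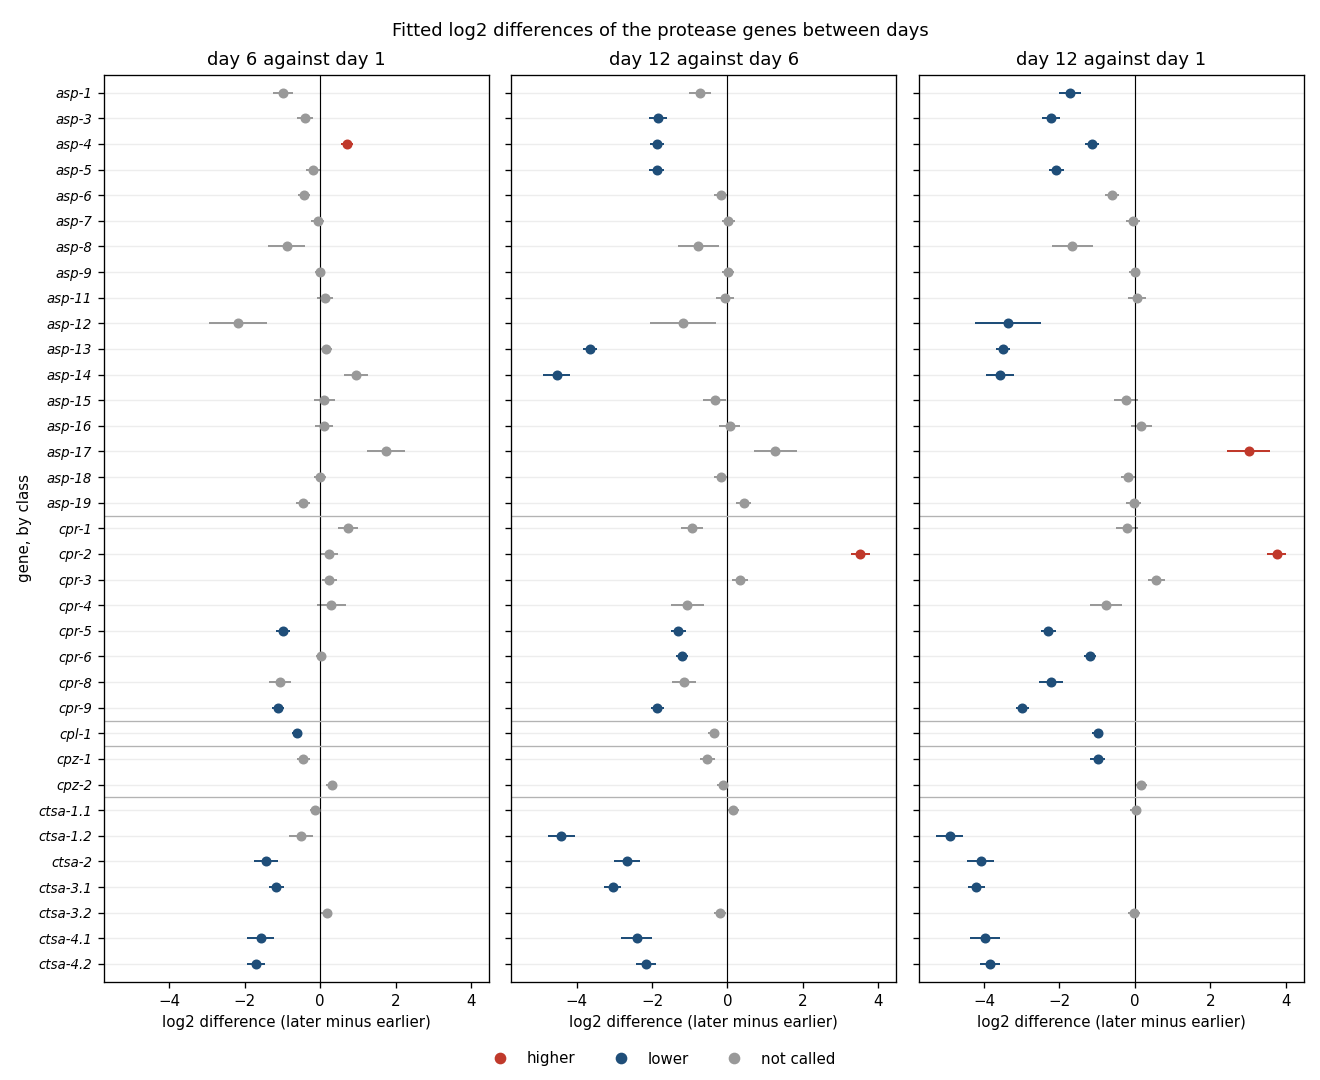
Fitted log2 differences (later minus earlier day) of the 35 protease genes, with bars of 1 SE, with a panel each for the change before day 6, the change after it and the whole change between day 12 and day 1. Genes run down the page by class, and colour gives the call at an adjusted p under 0.05. In the right panel 18 genes are called lower and 2, asp-17 and cpr-2, are called higher.

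Among the aspartyl proteases, 7 of 17 fell and 1 rose between day 12 and day 1. The gene asp-13 had a log2 signal of 9.34, 9.31 and 9.45 at day 1, 9.67, 9.49 and 9.40 at day 6, and 6.12 and 5.61 at day 12. Its arrays of day 1 and day 6 overlapped, and both day 12 arrays lay more than 3 units below them. It fell by 3.66 ± 0.18 between day 12 and day 6 (adjusted p = 7.3e-06), a signal 12.6-fold lower, and the day 6 to day 1 difference was 0.15 ± 0.16 (adjusted p = 0.727). The difference between the intervals was -3.81 ± 0.29 (adjusted p = 2e-04).

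The gene asp-14 had the same order of days. It had 7.39, 7.80 and 7.64 at day 1, 8.38, 8.30 and 9.02 at day 6, and 4.74 and 3.33 at day 12. Every day 6 array was above every day 1 array, but the difference of 0.95 ± 0.33 was not called (adjusted p = 0.161). It fell by 4.53 ± 0.36 between day 12 and day 6 (adjusted p = 4.19e-05), 23.1-fold, with an SD of 0.995 between the day 12 arrays. The difference between its intervals was -5.48 ± 0.59 (adjusted p = 0.000911).

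The genes asp-3 and asp-4 encode cathepsin D-like proteases that are known in worms for their part in necrotic neuron death. The values of asp-4 were 7.48, 7.62 and 7.62 at day 1, 8.46, 8.47 and 7.94 at day 6, and 6.48 and 6.37 at day 12. No arrays overlapped between any of the days, with day 6 highest and day 12 lowest. It was the only protease gene called higher at day 6 than at day 1, by 0.72 ± 0.17 (adjusted p = 0.0432). It then fell by 1.86 ± 0.19 (adjusted p = 0.000156), to a level 1.15 ± 0.19 below day 1 (adjusted p = 0.00197). The rise at day 6 was not called when any array was left out, with the exception of day 6 replicate 3, and its adjusted p reached 0.178 without day 6 replicate 1. It was also not called after quantile (0.0716) or cyclic loess (0.0817) normalization, with array weights (0.0513), with the arrays of day 6 and day 1 alone (0.064) or with the replicate number as a block (0.0737).

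The gene asp-3 had 6.99, 7.27 and 7.87 at day 1, 6.89, 6.88 and 7.19 at day 6, and 5.12 and 5.18 at day 12. Day 1 and day 6 overlapped, and the day 12 arrays were the lowest. It fell by 1.84 ± 0.24 between day 12 and day 6 (adjusted p = 0.000733), but the difference between the intervals was not called (-1.45 ± 0.38, adjusted p = 0.0771). The gene asp-5 had 9.90, 10.01 and 10.39 at day 1, 9.82, 9.85 and 10.04 at day 6, and 8.29 and 7.75 at day 12. Here too the arrays of day 1 and day 6 overlapped and those of day 12 were lower. It fell by 1.88 ± 0.21 between day 12 and day 6 (adjusted p = 0.000286), and the intervals differed by -1.68 ± 0.34 (adjusted p = 0.0231). The interval call of asp-5 missed the threshold when day 1 replicate 2 (adjusted p = 0.0504), day 6 replicate 1 (0.079), day 6 replicate 2 (0.0734), day 6 replicate 3 (0.11) or day 12 replicate 2 (0.0749) was left out.

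**Figure D2:**
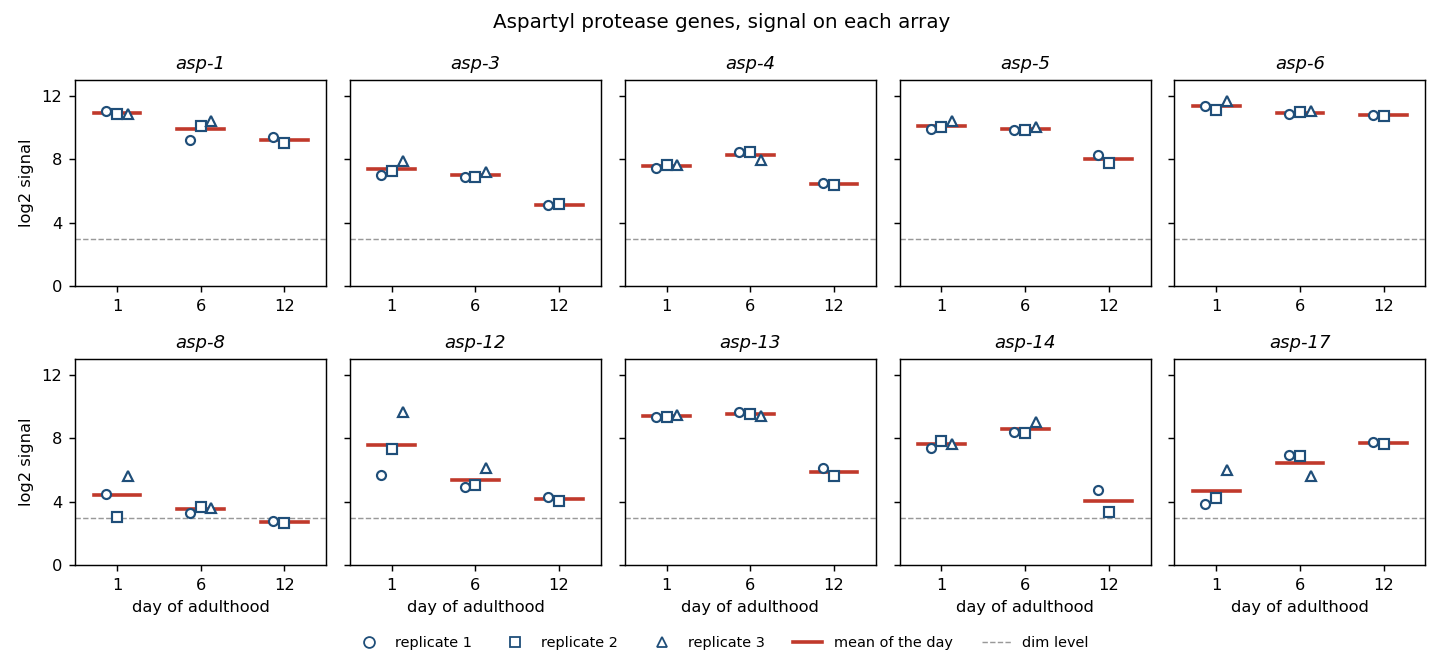
Log2 signal on each array against day of adulthood for the 10 aspartyl protease genes that were not dim on all days. Symbols are replicates, red bars are day means and the dashed line is the dim level of 3. The day 12 arrays of asp-13 lie at 6.12 and 5.61, below all earlier arrays, and those of asp-17 at 7.77 and 7.65, above all earlier arrays.

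The gene asp-1, an aspartyl protease gene known for expression in intestinal cells, had 11.02, 10.84 and 10.85 at day 1, 9.23, 10.09 and 10.40 at day 6, and 9.38 and 9.0 at day 12. All later arrays lay below day 1, while day 6 and day 12 overlapped. It fell by 1.71 ± 0.29 between day 12 and day 1 (adjusted p = 0.00274), and the difference at day 6 was -0.99 ± 0.26 (adjusted p = 0.0717). Leaving out day 6 replicate 3 or filtering dim probes brought the day 6 difference past the threshold.

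The gene asp-12 varied most among replicates. It had 5.66, 7.31 and 9.67 at day 1, 4.94, 5.05 and 6.10 at day 6, and 4.32 and 4.04 at day 12. The SD at day 1 was 2.01, and the arrays of day 6 and day 1 overlapped. It fell by 3.36 ± 0.87 between day 12 and day 1 (adjusted p = 0.0271). The call was lost with an intensity trend and robust hyperparameters (adjusted p = 0.134), with the arrays of the 2 days alone (0.0553), and without day 1 replicate 2 (0.0565), day 12 replicate 1 (0.116) or day 12 replicate 2 (0.16).

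The opposite direction was seen in asp-17. Its values were 3.86, 4.24 and 5.99 at day 1, 6.91, 6.84 and 5.60 at day 6, and 7.77 and 7.65 at day 12. The day 12 arrays were above all others, while day 6 and day 1 overlapped. It rose by 3.02 ± 0.57 between day 12 and day 1 (adjusted p = 0.00479), 8.09-fold. Neither step alone was called, with differences of 1.75 ± 0.51 between day 6 and day 1 and 1.26 ± 0.57 between day 12 and day 6 (adjusted p = 0.0984 and 0.251). The remaining aspartyl genes that were not dim throughout, asp-6 and asp-8, were not called in any comparison of the main fit. Between day 12 and day 1, asp-6 was called with an intensity trend and robust hyperparameters, after filtering dim probes and without day 1 replicate 2. Without day 1 replicate 2, asp-8 was called at day 6 and at day 12 against day 1. It was also called between day 12 and day 6 with the arrays of those 2 days alone. The gene asp-6 had 11.32, 11.10 and 11.69 at day 1, 10.83, 10.97 and 11.01 at day 6, and 10.80 and 10.74 at day 12. Its days did not overlap, but they covered less than 1 log2 unit, and the difference between day 12 and day 1 was -0.60 ± 0.19 (adjusted p = 0.0609). The gene asp-8 had 4.51, 3.06 and 5.63 at day 1, 3.3, 3.65 and 3.59 at day 6, and 2.80 and 2.68 at day 12. Its day 1 arrays spanned those of day 6 and lay above the dim values of day 12, with a difference of -1.66 ± 0.55 between day 12 and day 1 (adjusted p = 0.0762).

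Among the cathepsin B-like genes, 4 of 8 fell and 1 rose between day 12 and day 1. The gene cpr-9 had 6.83, 6.58 and 6.97 at day 1, 5.49, 5.87 and 5.66 at day 6, and 3.87 and 3.74 at day 12. The 3 days did not overlap and stood in descending order. It fell by 2.99 ± 0.18 between day 12 and day 1 (adjusted p = 5.42e-06), 7.92-fold, of which 37.6% of the log2 change had occurred by day 6. Each interval was called, at -1.12 ± 0.16 before day 6 (adjusted p = 0.00627) and -1.86 ± 0.18 after it (adjusted p = 0.000112).

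The gene cpr-5 had 10.82, 10.77 and 11.17 at day 1, 9.58, 10.16 and 10.05 at day 6, and 8.65 and 8.61 at day 12. These days did not overlap either, in the same descending order. It fell by 2.29 ± 0.21 between day 12 and day 1 (adjusted p = 4.01e-05) and by 0.99 ± 0.18 between day 6 and day 1 (adjusted p = 0.0174). Leaving out day 6 replicate 1 or day 6 replicate 3 ended the day 6 call (adjusted p = 0.0681 and 0.0502). The gene cpr-8 had 6.71, 6.93 and 7.67 at day 1, 6.16, 6.23 and 5.73 at day 6, and 4.45 and 5.31 at day 12. Its days were in descending order without overlap. It fell by 2.23 ± 0.32 between day 12 and day 1 (adjusted p = 0.000926). Its separate intervals missed the threshold, at -1.07 ± 0.29 between day 6 and day 1 (adjusted p = 0.0746) and -1.16 ± 0.32 between day 12 and day 6 (adjusted p = 0.0511). They were called in 4 of 18 and 10 of 18 alternatives, with adjusted p values of 0.0377 to 0.226 and 0.0222 to 0.351.

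The gene cpr-6 is a worm relative of human cathepsin B. Its values were 10.03, 9.68 and 9.79 at day 1, 9.84, 9.91 and 9.83 at day 6, and 8.63 and 8.67 at day 12. Day 1 and day 6 overlapped and differed by 0.03 ± 0.14, and both day 12 arrays were about 1 unit lower. It fell by 1.21 ± 0.15 between day 12 and day 6 (adjusted p = 0.000642), and the intervals differed by -1.24 ± 0.25 (adjusted p = 0.0234). The interval call did not hold when the fit left out day 6 replicate 1 (adjusted p = 0.0935), day 6 replicate 2 (0.102), day 6 replicate 3 (0.0883), day 12 replicate 1 (0.0569) or day 12 replicate 2 (0.0654), and with the replicate block (0.058).

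The gene cpr-2 moved the other way. It had 2.06, 1.66 and 2.02 at day 1, 2.28, 2.26 and 1.94 at day 6, and 6.11 and 5.25 at day 12. It was dim at day 1 and day 6 and well above the dim level on both day 12 arrays. It rose by 3.76 ± 0.25 between day 12 and day 1 (adjusted p = 8.45e-06) and by 3.52 ± 0.25 between day 12 and day 6 (adjusted p = 2.24e-05), both lower bounds. The intervals differed by 3.28 ± 0.41 (adjusted p = 0.00207).

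The other cathepsin B-like genes were not called in any of these comparisons. The gene cpr-1, known as a gut cysteine protease, had 5.86, 6.21 and 7.07 at day 1, 7.24, 6.92 and 7.17 at day 6, and 6.09 and 6.23 at day 12, so that day 12 lay within the range of day 1. The difference between day 12 and day 1 was -0.22 ± 0.30 (adjusted p = 0.736). Between day 12 and day 6 it was -0.94 ± 0.30 (adjusted p = 0.0858), without overlap. The gene cpr-3 had 6.24, 6.79 and 6.51 at day 1, 6.83, 6.89 and 6.55 at day 6, and 6.81 and 7.35 at day 12. Its day 12 arrays were just above those of day 1, by 0.57 ± 0.22 (adjusted p = 0.134). The gene cpr-4, which encodes a cathepsin B-like protease known to be secreted, had 7.59, 8.65 and 9.53 at day 1, 8.97, 8.82 and 8.86 at day 6, and 7.59 and 8.05 at day 12. The day 1 arrays ranged over 1.94 log2 units and spanned the day 6 arrays, and the difference between day 12 and day 1 was -0.77 ± 0.43 (adjusted p = 0.321). Between day 12 and day 6 it was -1.06 ± 0.43 (adjusted p = 0.193), without overlap. The day 12 to day 6 differences of cpr-1 and cpr-4 were called with the arrays of those 2 days alone and without day 1 replicate 1 or day 1 replicate 3. Without day 1 replicate 3, cpr-1 was also called between day 6 and day 1 and in the interval contrast. Without day 1 replicate 1, cpr-4 was also called between day 12 and day 1.

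**Figure D3:**
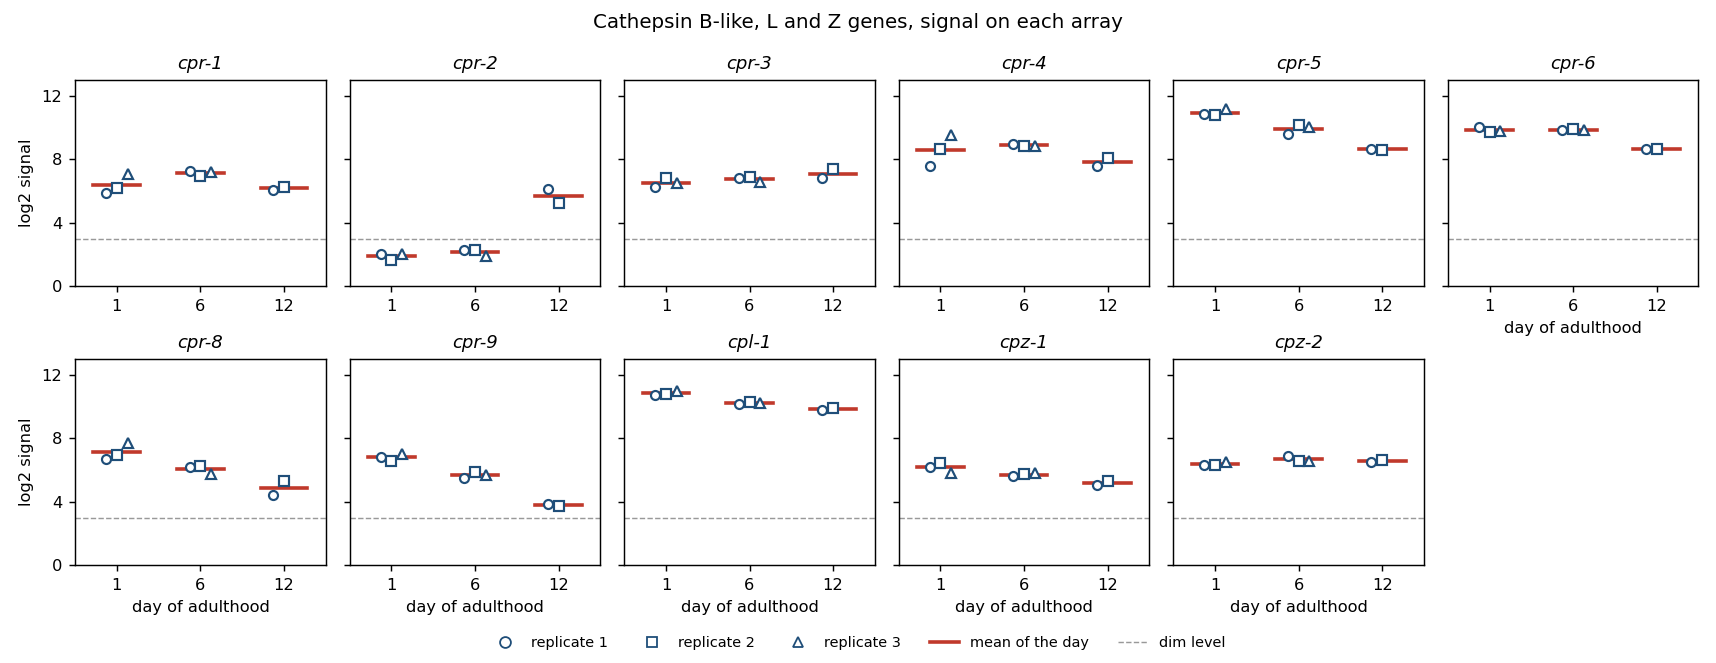
Log2 signal on each array against day of adulthood for the 11 cathepsin B-like, L and Z genes. Symbols are replicates, red bars are day means and the dashed line is the dim level of 3. The gene cpr-9 steps down at each age, cpr-6 stays near 9.8 until day 6 and lies at 8.63 and 8.67 at day 12, and cpr-2 is above the dim level at day 12 alone.

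The cathepsin L gene cpl-1, which is known to act in yolk processing in embryos and in molting, had 10.70, 10.79 and 10.94 at day 1, 10.12, 10.25 and 10.20 at day 6, and 9.78 and 9.86 at day 12. The days stood in descending order without overlap, over a smaller range than in the genes above. It fell by 0.99 ± 0.15 between day 12 and day 1 (adjusted p = 0.0012), 1.98-fold, and 62.6% of this log2 change was present at day 6. The day 6 call (-0.62 ± 0.13, adjusted p = 0.0327) ended on leaving out day 1 replicate 2 (0.0748), day 1 replicate 3 (0.0822), day 6 replicate 1 (0.14), day 6 replicate 2 (0.0735) or day 6 replicate 3 (0.101), after quantile normalization (0.0603) and with the replicate block (0.0655).

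The cathepsin Z genes differed from each other. The gene cpz-1, known for a part in molting and embryonic development, had 6.18, 6.46 and 5.81 at day 1, 5.59, 5.72 and 5.80 at day 6, and 5.06 and 5.28 at day 12. Its days descended without overlap. It fell by 0.98 ± 0.20 between day 12 and day 1 (adjusted p = 0.00711), and the adjusted p was 0.0685 when day 12 replicate 1 was left out. The gene cpz-2 had 6.32, 6.33 and 6.48 at day 1, 6.89, 6.59 and 6.57 at day 6, and 6.50 and 6.59 at day 12. All its arrays lay between 6.32 and 6.89, and the difference between day 12 and day 1 was 0.17 ± 0.16 (adjusted p = 0.589).

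The cathepsin A-like carboxypeptidases held the lowest differences of all 5 classes between day 12 and day 1. In this class 5 of 7 genes fell by 3.84 to 4.91 on the log2 scale. The other two were ctsa-1.1, which was not called, and ctsa-3.2, which was dim throughout. The gene ctsa-1.2 had 9.58, 9.39 and 9.32 at day 1, 8.78, 8.96 and 9.04 at day 6, and 5.32 and 3.72 at day 12. Day 6 lay just below day 1 without overlap, and both day 12 arrays lay far below, with 1.59 units between them. The difference was -0.50 ± 0.32 between day 6 and day 1 (adjusted p = 0.5). It fell by 4.41 ± 0.36 between day 12 and day 6 (adjusted p = 4.49e-05), 21.3-fold, and the intervals differed by -3.91 ± 0.58 (adjusted p = 0.00537).

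The other 4 had lost signal by day 6 already. The gene ctsa-4.2 had 7.50, 7.42 and 8.39 at day 1, 6.01, 6.25 and 5.98 at day 6, and 3.99 and 3.87 at day 12. It fell by 1.69 ± 0.24 between day 6 and day 1 (adjusted p = 0.00627) and by 2.15 ± 0.27 between day 12 and day 6 (adjusted p = 0.000535), with no overlap between days. The gene ctsa-3.1 had 7.09, 7.06 and 6.70 at day 1, 5.34, 5.96 and 6.05 at day 6, and 2.70 and 2.79 at day 12. It too stepped down without overlap and ended below the dim level, so that its fall of 4.21 ± 0.23 between day 12 and day 1 is a lower bound (adjusted p = 4.09e-06). It had fallen by 1.17 ± 0.20 at day 6 (adjusted p = 0.0132), and the intervals differed by -1.87 ± 0.36 (adjusted p = 0.0205). That interval call ended on leaving out day 6 replicate 2 (adjusted p = 0.0927), day 6 replicate 3 (0.101), day 12 replicate 1 (0.0594) or day 12 replicate 2 (0.064).

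The gene ctsa-2 had 9.12, 9.01 and 9.80 at day 1, 7.40, 8.04 and 8.20 at day 6, and 5.73 and 4.71 at day 12. Its days did not overlap. It fell by 4.09 ± 0.35 between day 12 and day 1 (adjusted p = 2.95e-05), 17.1-fold, and the difference at day 6 was -1.43 ± 0.31 (adjusted p = 0.034). The gene ctsa-4.1 had 6.58, 6.45 and 7.92 at day 1, 5.09, 5.77 and 5.38 at day 6, and 3.29 and 2.71 at day 12. These days did not overlap either, and the mean at day 12 was just under the dim level. It fell by 3.98 ± 0.40 between day 12 and day 1 (adjusted p = 8.73e-05), a lower bound, and the difference at day 6 was -1.57 ± 0.36 (adjusted p = 0.0399).

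The day 6 call of ctsa-2 was lost when any single array of day 1 or day 6 was left out, with adjusted p values of 0.0557 (without day 1 replicate 2) to 0.141 (without day 6 replicate 1). The day 6 call of ctsa-4.1 ended on leaving out day 1 replicate 1 (adjusted p = 0.0575), day 6 replicate 1 (0.163), day 6 replicate 2 (0.0587) or day 6 replicate 3 (0.121), and with the arrays of day 6 and day 1 alone or without either day 12 array (0.0595 each). Its fall between day 12 and day 6 (-2.41 ± 0.40, adjusted p = 0.00341) was not called without day 12 replicate 2 (0.0571). The day 6 calls of ctsa-3.1, ctsa-4.2 and cpr-9 were kept in all 18 alternatives. These are not 18 separate fits of that comparison. Leaving out either day 12 array gives the same fit as the arrays of day 6 and day 1 alone.

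The exception among the carboxypeptidases was ctsa-1.1. Its values were 8.20, 8.22 and 8.25 at day 1, 8.06, 8.17 and 8.05 at day 6, and 8.32 and 8.17 at day 12. Day 12 and day 1 overlapped, with a difference of 0.02 ± 0.14 (adjusted p = 0.957).

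**Figure D4:**
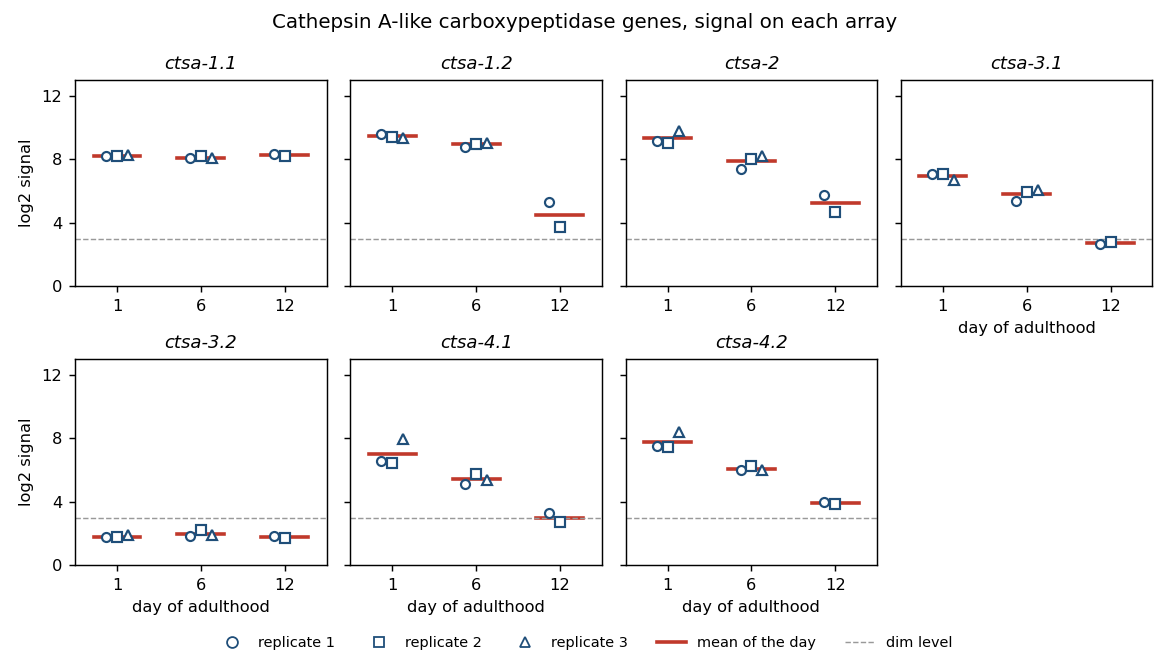
Log2 signal on each array against day of adulthood for the 7 cathepsin A-like carboxypeptidase genes. Symbols are replicates, red bars are day means and the dashed line is the dim level of 3. Apart from ctsa-1.1, which stays between 8.05 and 8.32, and ctsa-3.2, which is dim throughout, the genes are lowest on the day 12 arrays.

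Lists of other genes of the same pathway are read beside the shares of probes called between day 12 and day 1, which were 9.58% higher and 4.52% lower, or 18.8% and 10.4% among probes with a mean of at least 3. Of 13 prolyl carboxypeptidase and dipeptidyl peptidase genes, 5 fell and 8 were not called between day 12 and day 1 (pcp-1, pcp-2, pcp-3, pcp-4 and dpf-2), with a median of -0.22. Of 22 measured hydrolases of lysosomal or related type that act on lipids, sugars or nucleic acids, 7 rose and 1 fell between day 6 and day 1. In that comparison 2.18% of probes were called higher and 1.66% lower, or 5.31% and 4.05% of those with a mean of at least 3. Between day 12 and day 6, 9 of the hydrolases fell and 13 were not called. Called lower there were 2.69% of probes, or 6.56% of those with a mean of at least 3. Between day 12 and day 1, 4 hydrolases rose and 7 fell. The 4 that rose were hex-1, hex-2, hex-3 and hex-4, of the hexosaminidase family, and hex-5 of that family fell. Of 16 lysosomal membrane and transport genes, 1 rose (clh-6) and 2 fell (cln-3.1 and cln-3.3) between day 12 and day 1, with a median of 0.02, counts near those shares.

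Both cystatin genes, which encode inhibitors of cysteine proteases, were called higher at day 12 than at day 1. The cystatin gene cpi-1 rose by 1.83 ± 0.23 between day 6 and day 1 (adjusted p = 0.00419) and by 2.63 ± 0.26 between day 12 and day 1 (adjusted p = 7.36e-05). The other cystatin gene, cpi-2, rose by 0.80 ± 0.17 between day 12 and day 1 (adjusted p = 0.00925). In the list of 8 cystatin and serpin genes, 2 rose, 1, the serpin gene srp-1, fell and 5 were not called. Among those 5 was srp-6, at 0.81 ± 0.30 (adjusted p = 0.116). Among 8 measured calpains, which are cysteine proteases of the cytosol, clp-4 (1.76 ± 0.16) and clp-9 rose between day 12 and day 1, and the others were not called. Of 6 transcription factor genes linked to the gut or lysosome, hlh-30, the TFEB homologue, rose by 0.80 ± 0.16 (adjusted p = 0.00757). The other 5, among them the intestinal GATA factor genes elt-2 and elt-7, were not called in this comparison.

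Tissue markers were read beside the same shares. Of 17 measured intestine markers, 9 fell and 2 rose between day 12 and day 1, with a median of -0.84, and their summed linear signal was 1586 to 1788 at day 12, against 2867 to 3858 at day 1. At day 6 that sum was 1820 to 2122. The 2 markers that rose, mtl-2 and sptf-3, were the brightest of the list at day 12, with means of 9.08 and 8.64. They therefore weigh most in the day 12 sum. The 9 markers that fell did so by 0.84 (ges-1) to 4.57 (pho-1) between day 12 and day 1. None of the 17 was dim on all days. Of 12 body wall muscle markers, 11 fell between day 12 and day 1 and 1 was not called, with sums of 966 to 1107 at day 12 and 6407 to 8265 at day 1. Of 17 germline and oocyte markers 1 rose and 2 fell, with sums of 12310 to 15330 and 16830 to 18440 in the same order of days. Of 15 markers of embryos and larvae 8 rose and 7 were not called, with sums of 1105 to 1156 at day 12 and 146.7 to 166.8 at day 1. In that list noah-1 and noah-2, with day 12 means of 9.12 and 8.25, gave most of the day 12 sum. The genes pes-1, end-1, end-3, med-1, bli-1, dpy-7 and rol-6 of the list were dim on all days. Of these dpy-7 was among the 8 that rose, and it is in the epidermis list too. In the same comparison 2 of 12 sperm markers rose, 1 of 9 pharynx markers rose and 3 fell, 2 of 10 neuron markers rose, and 2 of 9 epidermis markers rose and 3 fell. The numbers that rose in these 4 lists were near the 18.8% called higher among probes with a mean of at least 3. That share is not a like one, since 8 sperm, 3 pharynx, 1 neuron and 3 epidermis markers were dim on all days. The shares that rose in the sperm, neuron and epidermis lists were above the 9.58% called higher among all tested probes. The falls in the pharynx and epidermis lists, 3 of 9 genes each, were above the shares called lower. The part of these tissue changes in the falls of the proteases, or in the rises of cpr-2 and asp-17, was not tested.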

How the data were processed

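The table holds log2 signal for 29317 probes on 8 arrays. The log2 scale was inferred from the deposited values, which ran from 0.685 to 13.23. How the authors normalized the values, and with which software, is not given in the sources used here. No detection calls accompany the values. A platform table gave 26281 probes 1 symbol, 480 several and 2556 none. All 35 members matched a RefSeq gene table (assembly WBcel235) by gene ID or symbol.

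A mean per day was fitted to 26761 probes with a symbol (limma 3.58.1, R 4.3.3, lmFit and eBayes defaults, 5 residual and 5.07 prior degrees of freedom, two-sided). Adjustment was by Benjamini-Hochberg over those probes. The fit was also run on simulated data of independent normal values, a simpler setting than these arrays, and no conclusion is drawn from that run. Named genes were called in at least 1 comparison with an absolute difference of at least 1 and a day mean of at least 3. The rule also listed asp-1, asp-3, asp-4, cpl-1, cpz-1 and cpr-6 whatever their values, of which only cpl-1 and cpz-1 did not meet those criteria. Other members are given more briefly. Members are defined by symbol alone, but the gene families and the lists were picked with earlier results of these data known. Alternatives were other normalizations, filters, priors, array weights, arrays of 2 days, each array left out, a replicate block and probes averaged per gene. The number of arrays limits the precision. Similar copies could share probe signal, which was not examined, and no sequences were analysed here.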

Additional observations from a re-analysis of the deposited data

How the results depend on the processing

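Of the calls of named genes, 18 of 20 between day 12 and day 1, 13 of 14 between day 12 and day 6, 3 of 8 between day 6 and day 1 and 5 of 8 between the intervals were kept under every alternative run, and none of them changed sign. The exceptions are named in the report. Between day 6 and day 1 the count of genes called higher was 0 with quantile or cyclic loess normalization, array weights or the replicate block, and 0 to 2 with 1 array left out. The count called lower was 3 to 6 with 1 array left out, and the interval contrast then called 5 to 10. Quantile normalization moved the cathepsin Z median between day 12 and day 1 to -0.54, and cyclic loess to -0.53, with -0.22 between day 6 and day 1. Filtering dim probes leaves out the dim aspartyl genes and moved that class median to -1.90 (day 12 against day 1) and -1.51 (day 12 against day 6). With 1 array left out, the carboxypeptidase median ranged from -4.16 to -3.53 (day 12 against day 1) and the cathepsin B-like median from -1.26 to -0.85 (day 12 against day 6). The uncalled day 6 difference of cpr-6 turned to -0.0366 with cyclic loess and -0.0503 without day 1 replicate 2. For genes with a mean of at least 3, the median difference between day 12 and day 1 was 0.11, and -0.00 after quantile normalization, and that between day 6 and day 1 was 0.12, and 0.02 after cyclic loess. In that last comparison 584 probes were called higher and 445 lower, and 427 and 579 after cyclic loess. Deviations of arrays with the same replicate number were correlated at -0.114, -0.0265 and -0.026 between day 6 and day 1. The values were 0.112 and 0.0592 between day 12 and day 1, and -0.106 and -0.0413 between day 12 and day 6. Pairs with different numbers gave -0.0492 to 0.0775, -0.112 to 0.0522 and -0.0679 to 0.106 in the same order. The 2 day 12 arrays deviate from their mean by equal and opposite amounts, so their values are not independent. The shared number is not treated as a pairing in the main fit, and these values cannot settle whether there was one. With the replicate block, the calls lost were those of asp-4 and cpl-1 at day 6 and the interval call of cpr-6, and asp-12 was gained at day 6. Calls of named genes gained between day 6 and day 1, besides those of asp-1 and cpr-8, were those of asp-12 (2 of 18), asp-17 (1 of 18) and asp-14. That of asp-14 came with the arrays of day 6 and day 1 alone, a fit that leaving out either day 12 array repeats. Between day 12 and day 6, besides that of cpr-8, calls of asp-1 and cpl-1 were gained (1 of 18 each). In the interval contrast asp-3 was called with an intensity trend and robust hyperparameters, after filtering dim probes and without day 1 replicate 3. The mean of a gene's probes gave the same values, since each gene had 1 probe.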

Other observations

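In the order of protein-coding genes and pseudogenes in the RefSeq annotation, several members lie side by side. The genes cpr-5 and cpr-8 are adjacent, and they fell by 2.29 ± 0.21 and 2.23 ± 0.32 between day 12 and day 1. In a run of adjacent genes, asp-6, asp-12, asp-5 and asp-11, the differences were -0.60 ± 0.19 (not called), -3.36 ± 0.87 and -2.08 ± 0.21 (both called), and asp-11, annotated as a pseudogene, was dim. The run of asp-17, asp-16 and asp-15, with asp-1 1 gene further on, held members of opposite direction: asp-17 rose by 3.02 ± 0.57, asp-1 fell by 1.71 ± 0.29, and asp-16 and asp-15 were dim on all days.

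At day 1 the replicates of some members lay far apart. The SD exceeded 1 in asp-12, asp-8 and asp-17, 3 of the 35 genes, against 0.396% of all tested probes. In 19 of the 26 protease genes with a mean of at least 3 over the 8 arrays, day 1 replicate 3 was the highest of its day, or 73.1%, against 44.3% of all probes that bright. Without that array the carboxypeptidase median between day 12 and day 1 was -3.53. At day 12, replicate 2 lay below replicate 1 in 12 of the 18 genes that fell, against 56.2% of all probes called lower.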
